A study of Cicer arietinum with 5 samples.

Results

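Short unplaced contigs are pieces of the kabuli chickpea assembly (version 1) that were joined neither to one of the 8 pseudochromosomes Ca1 to Ca8 nor to a larger scaffold, and their names are the letter C and a number. Of 6701 regions with a listed methylcytosine (8 chromosomes, 6345 scaffolds and 348 contigs), 164 contigs had at least 20 cytosines listed in all 5 bisulphite libraries, here called shared cytosines, and these 164 were analysed. Of the other 184 contigs, 116 had 1 to 19 shared cytosines and 68 had 0. Just inside the limit, 7 contigs had 20 to 22 shared cytosines, and just outside it 10 contigs had 17 to 19. The 164 contigs held 42828 listed positions, 0.105% of the 40605001 of the whole series, and 13845 shared cytosines, 94.3% of the 14688 on all 348 contigs.

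Whole genome bisulphite sequencing was done on seed DNA of field-grown Himchana 1, a cultivar with small seeds. The stages were mid-maturation (S5, 3 replicates) and late-embryogenesis (S3, 2 replicates). The study used these libraries to compare the cultivar with JGK 3, a cultivar with large seeds, at each stage. Here the stages of Himchana 1 are set against each other. Every replicate was a pool of whole seeds, which hold embryo, seed coat and, early in development, endosperm, so a change of methylation within a tissue and a change in the make-up of the seed cannot be told apart. The libraries listed 27776981, 26392558 and 26011939 methylcytosines once at S5 and 24562004 and 25783457 at S3, with a median coverage of 12 to 14 reads. S5 replicate 2 had the lowest mean coverage (15.6 reads, against 19.6 to 20.2 in the other libraries).

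In plants, cytosines are methylated in 3 sequence contexts, CG, CHG and CHH, where H is A, C or T. As known from Arabidopsis, MET1 copies CG methylation after replication, CMT3 keeps CHG methylation in a loop with histone H3 lysine 9 methylation, and CHH methylation is set by CMT2 and by DRM2, the enzyme of the small RNA-directed pathway. Pieces that an assembler cannot place are often rich in repeats such as transposable elements, satellites and rRNA genes, and in plants most transposable elements are methylated in all of these contexts.

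The contigs were short. Their listed cytosines spanned 534 to 16754 bp (median 1772 bp), and the last listed base lay at 731 to 21960 (median 2157), which gives a lower limit for the length of each contig. A contig had 53 to 1328 listed positions (median 198) and 20 to 449 shared cytosines (median 64). The number in the name followed the last listed base across the contigs (Spearman's rho = 0.94, n = 164 contigs, a description), so that low numbers marked the shorter pieces. Over all 164 contigs the median density of listed cytosines was 112 per kb, from 16.5 per kb on C11176802 to 214 per kb on C11095618. Short contigs tended to be denser (rho of density with span = -0.56, n = 164). The rule of 20 shared cytosines lets a short contig in only if it is dense, and so favours this relation. How far it did so was not tested. C11176652 held the most, 1328 listed positions and 449 shared cytosines between bases 157 and 12978, followed by C11177086 with 1081 and 424 between bases 45 and 7951, and C11163350 with 782 and 338 between bases 746 and 7596. On 35 of the 164 contigs the first listed base lay beyond base 500.

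Context was read from the listed cytosines themselves, since the tables name none. A cytosine with a listed partner 1 base downstream on the opposite strand was CG, with a partner 2 bases downstream CHG, and any other was asymmetric, a class that holds CHH together with any CG or CHG site listed on only 1 strand. On the contigs, CG made up 22.8%, 24.3% and 22.6% of the listed cytosines in the 3 S5 libraries, against 25.3% and 25.2% in the 2 S3 libraries. CHG made up 17.2%, 17.5% and 17.7% at S5, against 19.8% and 19.5% at S3. The asymmetric class made up 60.0%, 58.1% and 59.7% at S5, against 54.9% and 55.3% at S3. The stages did not overlap in any context, but the exact permutation test (two-sided, all 10 arrangements of the libraries, smallest possible p 0.1) gave p = 0.2 for CG and p = 0.1 for CHG and the asymmetric class. The number of asymmetric cytosines listed on the contigs averaged 16503 ± 887 (SD, n = 3) at S5 and 13686 ± 950 (SD, n = 2) at S3, without overlap (exact permutation p = 0.1), whereas the CG and CHG numbers of the stages overlapped. Ca1 to Ca8 moved much alike. The CG, CHG and asymmetric shares differed there by -2.02, -2.41 and 4.43 points (S5 minus S3), against -2.02, -2.16 and 4.17 points on the contigs. Asymmetric cytosines listed on Ca1 to Ca8 averaged 8825980 at S5 and 7478770 at S3.

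Compared with Ca1 to Ca8, the contigs were poorer in symmetric and richer in asymmetric methylcytosines in each of the 5 libraries. The CG share differed by -2.08 to -1.92 percentage points (contigs minus Ca1 to Ca8, mean -2.02), the CHG share differed by -1.86 to -1.32 points (mean -1.61), and the asymmetric share by 3.24 to 3.94 points (mean 3.64). Each of these had the same sign in 5 of 5 libraries, for which the exact sign-flip permutation test over 32 sign patterns gives p = 0.063, the smallest it can reach. Without the contigs of a coverage ratio of 2 or more an alternative chosen after seeing the data, the mean differences were -0.546 points in CG, -1.45 in CHG and 1.99 in asymmetric cytosines. The difference was larger against the scaffolds, at -2.98 points in CG, -5.37 in CHG and 8.36 in asymmetric cytosines (p = 0.063 each in the exact permutation test).

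Single contigs spanned nearly the whole range of make-up. The CG share of the listed positions of a contig, counted over all libraries, ran from 3.15% to 98.3% (median 17.2%), and the asymmetric share from 1.69% to 94.5% (median 67.4%). The asymmetric class held more than 50% of the positions on 148 of the 164 contigs, and CG did so on 5. C11177172 stood at the CG end: 58 of its 59 listed positions, between bases 103 and 2170, were CG and the remaining one was asymmetric. Its 39 shared CG had levels of 98.7%, 96.0% and 97.9% at S5 and 96.9% and 96.4% at S3, and no CHG was listed. C11176802 was CG at 158 of 195 positions (81.0%) over bases 245 to 12090, with levels of 91.1%, 92.8% and 90.7% at S5 and 89.7% and 90.8% at S3. C11137854 was CG at 57.1% and C11175430 at 51.4% of the positions. Methylation in CG alone, without CHG and CHH, is the known pattern of gene bodies in plants, but which genes these contigs carry was not analysed here.

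At the asymmetric end stood C11057652, with 120 of 127 positions in that class (94.5%) and CG at 3.15%, then C11085144 (88.6%) and C11079272 (87.6%). The 24 shared asymmetric cytosines of C11057652 had levels of 72.0%, 65.01% and 66.9% at S5 and 62.6% and 65.4% at S3, above the median of 51.7% over 150 contigs. C11061968 was poor in CG (4.04%) and rich in CHG, with 79 of 198 positions (39.9%, the highest CHG share of the 164). Its 54 shared CHG had levels of 90.02%, 89.4% and 90.4% at S5 and 93.4% and 93.9% at S3. C11064028 also had a CG share of 4.04%, with 86.9% asymmetric positions at levels of 22.2%, 16.6% and 25.1% at S5 and 23.0% and 21.9% at S3 over its 6 shared asymmetric cytosines. Its mean over the libraries, 21.8%, was the lowest of the 19 contigs with a coverage ratio of 2 or more, which are described below.

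Coverage tells whether a contig drew more reads than the rest of the genome, as a sequence present in more copies than the assembly holds would. It is given as a ratio, the mean reads over the shared cytosines of a contig divided by the median coverage of that library. The ratio, as the median of the 5 libraries, ran from 0.596 to 5.04 (median 1.17, quartiles 1.03 and 1.40), against a median of 1.19 over 134155 windows of 1 kb on Ca1 to Ca8 with 20 or more shared cytosines. Within libraries the medians differed by only -0.0392 to 0.0814 (contigs minus Ca1 to Ca8, exact sign-flip permutation p = 1.0). This holds for contigs and windows with 20 or more shared cytosines, a rule that leaves out poorly covered ones. How far the rule brings the medians together was not tested. The contigs had a heavier upper end: 19 of 164 (11.6%) reached a ratio of 2 and 15 (9.15%) a ratio of 3, against 5.76% and 1.74% of the Ca1 to Ca8 windows. On the scaffolds the shares were 16.9% and 8.25%.

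C11046550 had the highest ratio, 4.62, 3.90 and 5.28 in the S5 libraries and 5.08 and 5.04 in the S3 libraries, over 103 shared cytosines. C11095618 followed with 4.73, 3.41 and 5.67 at S5 and 4.77 and 5.01 at S3 over 243 shared cytosines, and C11049558 with 4.09, 4.05 and 4.52 at S5 and 4.78 and 4.66 at S3 over 110. Each of them stood above 3 in every library, and the stages overlapped for C11046550 and C11095618. Where cytosines with more than 3 times the median coverage were left out, C11095618 fell to a ratio of 1.51. At the low end, C11123342 had a median ratio of 0.596, C11087258 of 0.671 and C11148846 of 0.697, with 23 to 30 shared cytosines each. Among the 19 contigs with a ratio of 2 or more, 17 had their last listed base before 2000 (884 to 1986), against 60 of the other 145. They were also dense, with a median of 176 listed positions per kb, against 103 per kb on the other 145.

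The well-covered contigs differed from the other contigs most in the asymmetric class. Their asymmetric level, the mean percent of reads with C at shared cytosines, was 21.8% to 41.4% on each of the 19 (median 30.9%). Pooled over the 19 contigs, 1198 shared asymmetric cytosines averaged 34.5% ± 2.21 (SD, n = 3) at S5 and 31.8% ± 0.470 (SD, n = 2) at S3. On the other 145 contigs, 4425 such cytosines averaged 55.1% ± 2.62 at S5 and 51.1% ± 0.180 at S3. CG and CHG showed no such step, with CG at 93.0% and 92.9% at S5 and CHG at 82.6% and 82.8% at S5 on the well-covered and the other contigs. The rank correlation of the coverage ratio with the level was -0.58 for the asymmetric class (n = 150 contigs), 0.05 for CHG (n = 152) and 0.01 for CG (n = 161), a description over contigs that share the same 5 libraries. Make-up followed as well: asymmetric cytosines were 77.7% of the positions on the 19 contigs and 66.5% on the other 145. On Ca1 to Ca8 windows the share hardly differed, at 66.0% with a ratio of 2 or more and 64.9% under 2.

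**Figure D1:**
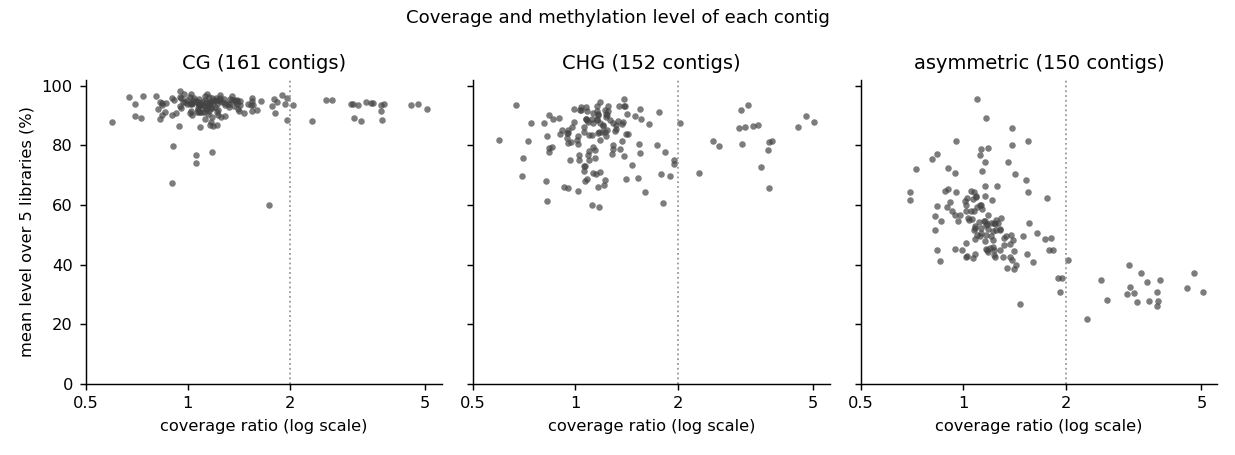
Each point is a contig with at least 3 shared cytosines of the context. The x axis is the coverage ratio (median of the 5 libraries, log scale, dotted line at 2) and the y axis the mean level over the 5 libraries in percent, for CG (161 contigs), CHG (152) and the asymmetric class (150). All 19 contigs right of the line lie at or below 41.4% in the asymmetric class, while their levels of 88.2% to 95.3% in CG and 65.6% to 93.5% in CHG lie within the range of the other contigs.

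In level, the chromosomes showed a step of the same direction and smaller size. Ca1 to Ca8 windows with a ratio of 2 or more averaged 43.5% ± 1.37 at S5 and 39.9% ± 0.578 at S3 in the asymmetric class, and those under 2 averaged 55.2% ± 1.81 at S5 and 50.6% ± 0.724 at S3. The listing itself moves with coverage. The lowest level at which a cytosine was listed was 60% at 5 reads, 30% at 10 reads, 15% at 20 reads and 5% at 100 reads in each of the 5 libraries, so deeper positions can enter the tables with lower levels. At shared asymmetric cytosines with 10 to 20 reads in every library, a range chosen after seeing the data, the contigs with a ratio under 2 had 54.1% ± 3.01 at S5 and 50.04% ± 0.193 at S3 over 591 cytosines. The 19 well-covered contigs kept only 8 such cytosines, with 57.7% ± 3.03 at S5 and 48.6% ± 4.12 at S3, so the step was not seen at these reads, with few cytosines to show it.

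**Figure D2:**
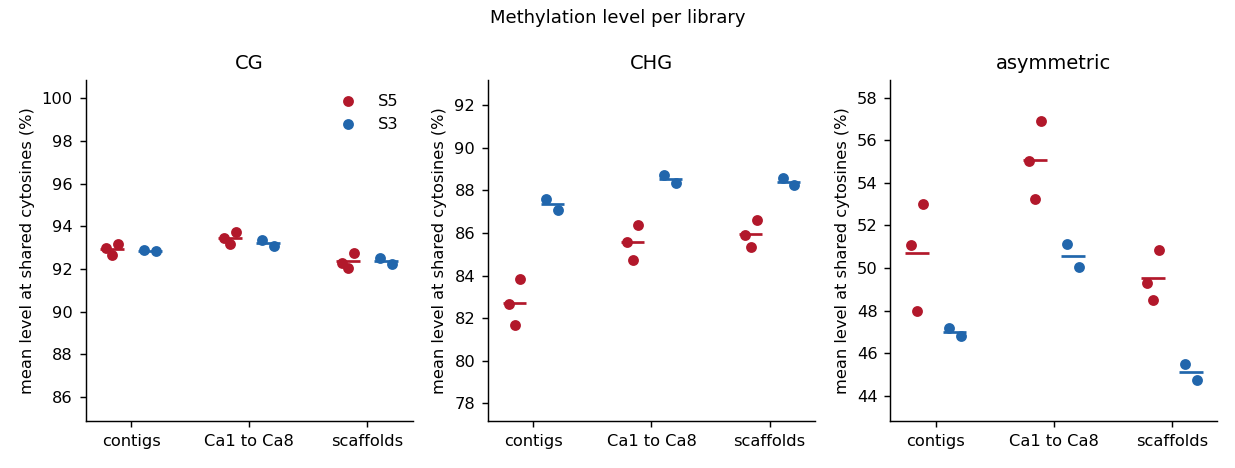
Mean methylation level in percent (y axis, a range of 16 points in each panel, not from 0) of each library at shared cytosines of the contigs, of Ca1 to Ca8 and of the scaffolds, by context. Points are libraries, S5 (3) left of S3 (2), and lines are their means. In CHG every S5 library lies below every S3 library in each region, and the gap is widest on the contigs (4.62 points, against 2.96 on Ca1 to Ca8).

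CG was nearly fully methylated on the contigs at both stages, at 93.0%, 92.7% and 93.2% in the S5 libraries and 92.9% and 92.9% in the S3 libraries over 4656 shared cytosines. The stages overlapped (difference 0.07 points, exact permutation p = 0.7). At a mean over the libraries, 95.3% of these cytosines had a level of 80% or more, against 95.7% on Ca1 to Ca8. The contigs were lower than Ca1 to Ca8 in each library, with differences of -0.574 to -0.225 points (contigs minus Ca1 to Ca8, mean -0.446, exact sign-flip permutation p = 0.063). This order turned round where levels were weighted by reads (0.0766 points). Against the scaffolds the contigs were higher by 0.546 points (exact sign-flip permutation p = 0.063).

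CHG methylation was lower on the contigs at S5 than at S3. It was 82.7%, 81.7% and 83.8% in the S5 libraries (mean 82.7% ± 1.09, SD) against 87.6% and 87.1% in the S3 libraries (mean 87.3% ± 0.361, SD) over 3566 shared cytosines. Each S5 library was below each S3 library, a difference of -4.62 percentage points (S5 minus S3, exact permutation p = 0.1). On Ca1 to Ca8 the level was 85.6% ± 0.821 at S5 and 88.5% ± 0.251 at S3, a difference of -2.96 points, and on the scaffolds the difference was -2.44 points. The contigs minus Ca1 to Ca8 gave -2.87, -3.09 and -2.54 points in the S5 libraries and -1.09 and -1.25 points in the S3 libraries. These distances did not overlap between the stages, so that the difference between the stages was more negative on the contigs than on Ca1 to Ca8 by -1.66 points (exact permutation p = 0.1, the smallest possible), and than on the scaffolds by -2.18 points (p = 0.1, exact permutation). Without S5 replicate 2, the library of the lowest coverage and CHG level, the contigs differed between the stages by -4.03 points and the excess over Ca1 to Ca8 was -1.52 points, again without overlap. At cytosines with 10 to 20 reads in every library the contigs differed by -4.54 points without overlap, and the excess was -1.06 points with overlapping stages (exact permutation p = 0.3).

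The larger difference was not confined to 1 kind of contig or of CHG site. On the 19 well-covered contigs it was -5.06 points, and each of the 19 was lower at S5 (-21.1 to -1.08 points). On the other 145 contigs it was -4.55 points. CHG sites followed by a further listed cytosine on the same strand, which are CCG, made up 9.28% of shared CHG on the contigs and 9.57% on Ca1 to Ca8, and they are known in Arabidopsis to be less methylated than other CHG. They had levels of 63.5% ± 0.658 at S5 and 67.9% ± 0.369 at S3 on the contigs, a difference of -4.45 points, against -3.63 points on Ca1 to Ca8. The other CHG sites, which include CCG whose second cytosine was not listed, had 84.7% ± 1.15 at S5 and 89.3% ± 0.360 at S3 on the contigs, a difference of -4.63 points, against -2.89 points on Ca1 to Ca8. The distance between contigs and Ca1 to Ca8 moved by -1.75 points between the stages for the other CHG sites (exact permutation p = 0.1) and by -0.82 points for CCG (exact permutation p = 0.2), without overlap in both.

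Contig by contig, 135 of the 152 contigs with at least 3 shared CHG had a lower CHG level at S5 and 17 a higher one. The median difference was -4.25 points (quartiles -7.98 and -1.69, from -24.9 to 8.52), against a median of -2.59 points over all 239673 contigs and 1 kb windows tested. Every S5 library lay below both S3 libraries on 92 of the 152 contigs (60.5%), against 38.6% of all features tested, and above them on 3 (1.97%), against 2.44%. Under a logistic regression on reads with Benjamini-Hochberg adjustment over all features, 50 contigs (32.9%) were lower at an adjusted p of 0.01 or less, against 12.1% of all features, and 0 were higher, against 0.0926%. Of the Ca1 to Ca8 windows with 20 or more shared cytosines, 13.4% were lower. The median number of shared CHG was 14 on the contigs and 15 on these windows. With a difference of at least 25 points as well, 1 contig was called lower, against 0.451% of all features, and 0 higher, against 0.0025%. The regression treats reads as independent, and limma, which takes the spread between libraries, called 0 of the 152 contigs and 0% of all features at an adjusted p of 0.05. At an unadjusted p under 0.05, limma had 52 of 152 contigs (34.2%), 51 of them lower, against 19.5% of all features.

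**Figure D3:**
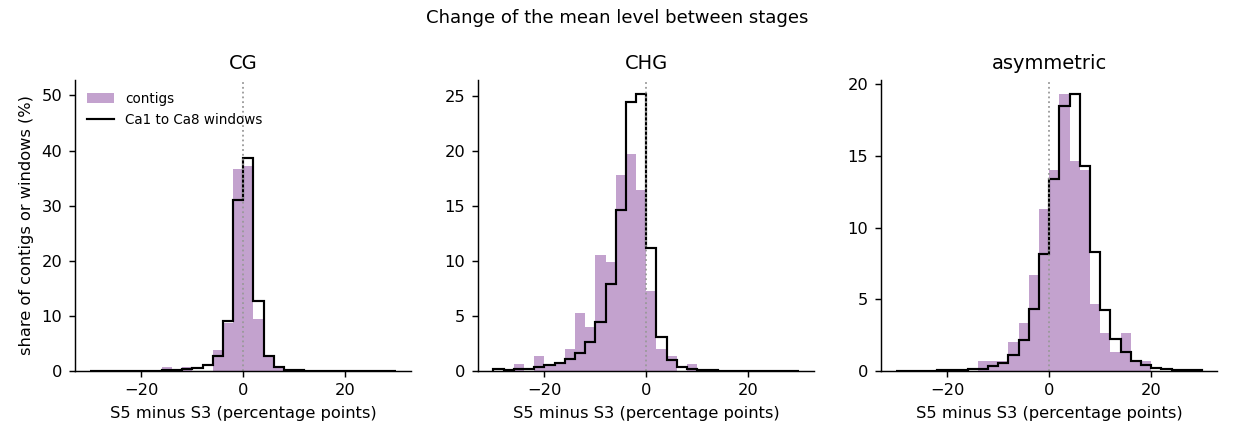
Share of contigs (filled) and of Ca1 to Ca8 windows of 1 kb with 20 or more shared cytosines (line), in percent, by the difference of the mean level between the stages (x axis, S5 minus S3 in percentage points, bins of 2 points, values beyond 30 points in the end bins). In CHG the contigs lie further to the left (median -4.25 points, against -2.65 for the windows), in CG both centre on 0, and in the asymmetric class both lie mostly to the right of 0.

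Contigs with a low CHG level had the larger differences, and low levels were more common on the contigs. Of the 152 contigs, 12.5% had a mean CHG level below 70% and 21.7% a level of 70% to 80%, against 5.95% and 11.8% of 114650 Ca1 to Ca8 windows. Below 70%, the median difference was -8.85 points on the 19 contigs, lower at S5 on each, and -9.65 points on the windows. At 70% to 80% it was -7.56 points on 33 contigs and -6.27 points on the windows, at 80% to 90% -4.06 points on 72 contigs and -3.00 points on the windows, and from 90% -1.65 points on 28 contigs and -1.31 points on the windows. The mean level used for these classes includes both stages, so they are a description. The level and the difference had a rank correlation of 0.56 over the 152 contigs.

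Asymmetric methylation on the contigs was 51.1%, 48.0% and 53.0% in the S5 libraries (mean 50.7% ± 2.53, SD) and 47.2% and 46.8% in the S3 libraries (mean 47.0% ± 0.242, SD) over 5623 shared cytosines. The stages did not overlap, with a difference of 3.69 points that was close to the spread between the S5 libraries (exact permutation p = 0.2). It was 5.02 points without S5 replicate 2 and 2.28 points without S5 replicate 3. Ca1 to Ca8 had 55.1% ± 1.83 at S5 and 50.6% ± 0.747 at S3, a difference of 4.48 points, and the contigs moved by -0.79 points relative to Ca1 to Ca8, with overlapping libraries (exact permutation p = 0.5). This value was -1.09 points without overlap where each contig and window counted once (exact permutation p = 0.1), and -0.165 points without S5 replicate 2. The level itself was lower on the contigs in each library, with differences of -5.27 to -3.22 points (contigs minus Ca1 to Ca8, mean -4.05, exact sign-flip permutation p = 0.063). This distance was 0.211 points without the 19 well-covered contigs, -1.27 points where cytosines over 3 times the median coverage were left out, and -0.00887 points at cytosines with 10 to 20 reads in every library (exact sign-flip permutation p = 0.94), the first and the last chosen after seeing the data. Against the scaffolds the contigs were 1.43 points higher (exact sign-flip permutation p = 0.13).

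By contig, 112 of 150 contigs had a higher asymmetric level at S5 and 38 a lower one (median 3.26 points, against 4.10 points over all 263881 features tested). All S5 libraries exceeded all S3 libraries on 57 contigs (38.0%), against 41.5% of all features, and lay below them on 7 (4.67%), against 3.45%. In the logistic regression 46 contigs were higher (30.7%) at an adjusted p of 0.01 or less, against 25.3% of all features, and 3 lower (2.0%), against 0.802%. Of the Ca1 to Ca8 windows with 20 or more shared cytosines, 28.0% were higher and 0.798% lower. The median number of shared asymmetric cytosines was 24 on the contigs, 20 on these windows and 15 over all features. With the limit of 25 points 0 contigs were called in either direction, against 0.34% of features higher and 0.0523% lower, while 76 of 150 (50.7%) had an unadjusted p under 0.05, against 45.7% of all features. Limma called 0 contigs and 0% of all features at an adjusted p of 0.05, with 29 contigs (19.3%) at an unadjusted p under 0.05, against 22.1% of all features.

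In CG the contigs were spread around no difference, with 80 of 161 higher and 81 lower at S5 and a median of -0.01 points, against 0.16 points over all 323187 features tested. The stages did not overlap on 24 contigs that were higher at S5 (14.9%, against 13.4% of all features) and on 19 that were lower (11.8%, against 10.4%). Neither direction held a contig called by logistic regression with 25 points (0 of 161, against 0.0244% of features higher and 0.0532% lower), and 30 contigs (18.6%) had an unadjusted p under 0.05, against 15.2%. Limma called 0 contigs and 0% of all features at an adjusted p of 0.05, with 11 contigs (6.83%) at an unadjusted p under 0.05, against 7.78%.

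The contigs with the most shared cytosines varied in which context moved. On C11176652 the asymmetric level was 55.6%, 52.0% and 54.8% at S5 against 46.7% and 48.6% at S3 over 179 cytosines, a difference of 6.51 points in the mean level without overlap. Its 129 shared CHG differed by -1.84 points. On C11163350, in contrast, the asymmetric levels of the stages overlapped (0.13 points over 128 cytosines), whereas CHG was 73.1%, 74.8% and 72.3% at S5 against 82.5% and 82.9% at S3 over 118 cytosines, a difference of -9.28 points without overlap. C11177086 had both, with CHG at 86.0%, 85.1% and 86.4% at S5 against 89.4% and 90.7% at S3 over 172 cytosines, and asymmetric levels of 45.9%, 44.3% and 49.3% at S5 against 42.8% and 42.8% at S3 over 129. Logistic regression gave an adjusted p of 2.36e-16 for the asymmetric class of C11176652, 2.49e-25 for CHG of C11163350 and 3.32e-13 for CHG of C11177086. The adjusted p of limma for the same 3 was 0.226, 0.167 and 0.233.

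Apart from the 1 contig called in CHG, the whole contigs with the largest differences over reads stayed below 25 points. In the asymmetric class C11180336 had the largest positive one, 19.6 points, with 65.9%, 51.9% and 65.7% at S5 against 46.9% and 42.1% at S3 over 25 cytosines between bases 843 and 17596 (adjusted p = 4.2e-13 by logistic regression, 0.173 by limma). C11152776 had the largest negative one, -12.1 points, with 57.1%, 43.7% and 64.5% at S5 against 60.4% and 73.8% at S3 over 20 cytosines, where the stages overlapped (adjusted p = 2.08e-05 by logistic regression, 0.32 by limma). In CG, C11148214 had the largest negative difference, -17.8 points over reads, with 62.6%, 63.0% and 78.3% at S5 against 81.4% and 85.3% at S3 over 25 cytosines, with S5 replicate 3 nearer to S3 than the other S5 libraries (adjusted p = 1.48e-11 by logistic regression, 0.564 by limma). With a coverage minimum of 10 reads in every library its CG difference was only -1.13 points. The largest positive CG difference, on C11133196, was 7.39 points over 9 cytosines, with 94.2%, 90.4% and 93.3% at S5 against 81.4% and 89.3% at S3 (adjusted p = 0.0358 by logistic regression, 0.587 by limma). In CHG, C11099794 had the largest positive difference, 7.15 points over only 3 cytosines, with overlapping stages (adjusted p = 0.467 by logistic regression). Single libraries moved these values: with 1 library left out, C11180336 ran between 12.9 points (without S5 replicate 3) and 21.3 points (without S5 replicate 2), and C11152776 between -18.0 (without S5 replicate 3) and -6.11 (without S3 replicate 2). C11133196 ran between 2.3 (without S3 replicate 1) and 12.2 (without S3 replicate 2), and C11099794 between 1.83 (without S3 replicate 1) and 12.1 (without S5 replicate 3). With a coverage minimum of 10 reads, C11180336 reached 28.2 points and was called.

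C11159426 was the contig called lower in CHG. Its 12 shared CHG had mean levels of 49.98%, 37.3% and 60.9% at S5 against 74.3% and 74.2% at S3, without overlap, and the difference over reads was -29.96 points (adjusted p = 4.38e-16 by logistic regression, 0.15 by limma). Bases 3651 to 3950 are the span of the 100 bp windows of this contig called lower in CHG, as described below. Lower CHG within them therefore follows from the choice. There, 9 of these CHG had 41.3%, 37.5% and 52.2% of reads with C at S5 against 74.2% and 76.0% at S3, and each of the 9 had a lower mean at S5. In the same 300 bp, asymmetric methylation was 24.1%, 25.2% and 32.8% at S5 against 47.0% and 45.7% at S3 over 14 cytosines, of which 13 had a lower mean at S5. CG there was 85.5%, 90.7% and 89.8% at S5 against 90.2% and 93.5% at S3 over 10 cytosines, with overlapping stages. So CHG and asymmetric methylation were lower together while CG stayed above 85%. On the rest of the contig the 3 shared CHG were also lower at S5, with a mean difference of -16.4 points. The 15 shared asymmetric cytosines there went the other way, with 4 lower at S5 and a mean difference of 11.1 points. The contig was not called without S5 replicate 2, where the CHG difference was -24.0 points.

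**Figure D4:**
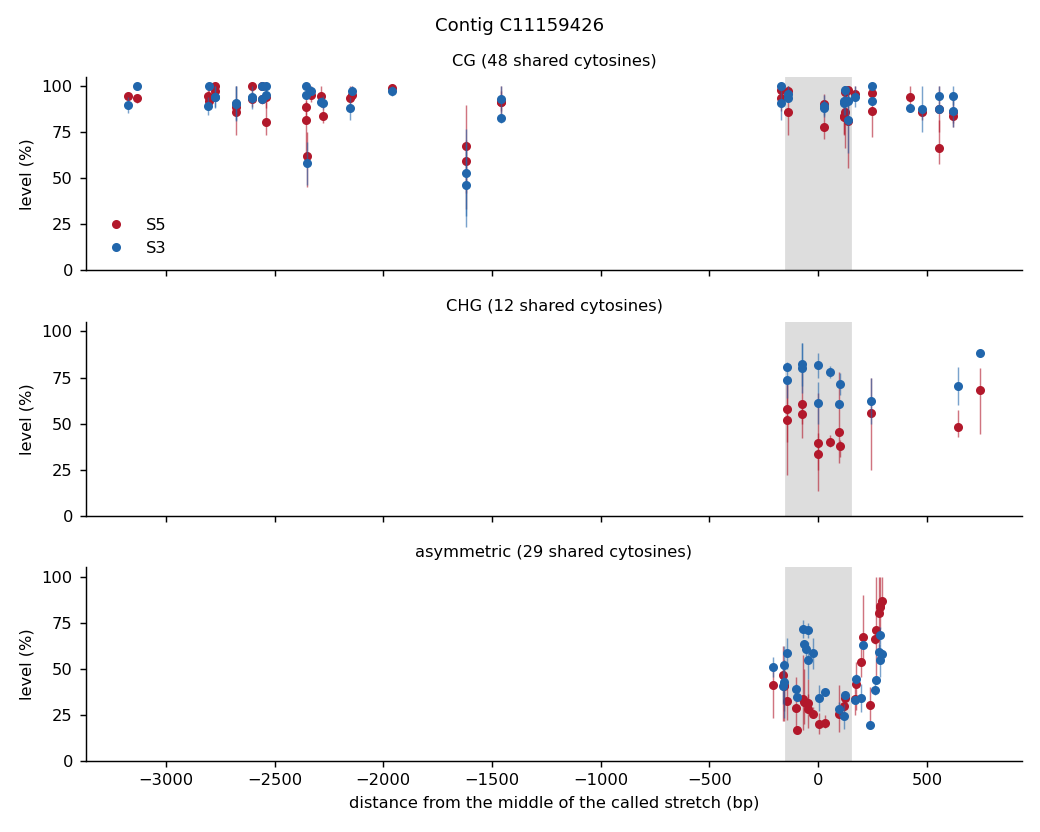
Level in percent (y axis) of each shared cytosine of C11159426 by its distance in bp from the middle of the called stretch (x axis, stretch shaded), for CG, CHG and the asymmetric class. Points are stage means (S5 red, S3 blue) and lines run from the lowest to the highest library of the stage. Within the shading, a stretch chosen for its lower CHG, the S5 points of all 9 CHG and of 13 of 14 asymmetric cytosines lie below the S3 points.

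Windows of 100 bp moved by 50 bp, each with at least 3 shared cytosines of the context, showed local differences that whole contigs average out. In CHG, 9 of 1001 contig windows were called (0.899%, against 0.3% of all windows tested), all lower at S5, in 4 stretches on 4 contigs. In the asymmetric class, 11 of 1587 windows were called (0.693%, against 0.474%), in 6 stretches on 5 contigs that were higher and 1 that was lower. The lower one was at bases 3651 to 3850 of C11159426, within its CHG stretch (smallest window adjusted p = 3.15e-11, logistic regression). In CG, 2 of 1228 windows were called (0.163%, against 0.0777%), both within bases 4901 to 5050 of C11148214. Neighbouring windows overlap, so these counts are not independent.

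These stretches are named as the calls, and they add contigs that the rule for whole contigs did not name. On C11152284, bases 401 to 550, 9 CHG had 46.6%, 53.3% and 61.8% at S5 against 81.6% and 84.9% at S3 (smallest window adjusted p = 3.75e-14, logistic regression). On C11157320, bases 6151 to 6300, 3 CHG had 57.1%, 66.1% and 57.1% at S5 against 100% and 90.5% at S3, and 12 asymmetric cytosines had 44.0%, 33.8% and 40% at S5 against 49.6% and 59.4% at S3. On C11129662, bases 2701 to 2800, 3 CHG averaged 56.7% ± 3.67 at S5 and 83.9% ± 5.05 at S3. In each of these the S5 libraries lay below both S3 libraries, in stretches chosen because their CHG was called lower. The CG stretch of C11148214 had 41.3%, 36.3% and 61.9% at S5 against 69.1% and 76.4% at S3 over 11 cytosines (smallest window adjusted p = 6.35e-09, logistic regression), while 4 asymmetric cytosines in it had 69.2%, 71.2% and 76.6% at S5 against 64.0% and 52.1% at S3.

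Among the asymmetric stretches that were higher at S5, C11169592 at bases 4101 to 4200 had 70.5%, 65.4% and 78.7% at S5 against 42.6% and 40.7% at S3 over 7 cytosines. C11136372 at bases 2751 to 2900 had 55.6%, 66.7% and 49.2% at S5 against 25% and 30.1% at S3 over 5 cytosines, and 3 CG in it stayed at 95% or above in each library. C11181800 held 2 such stretches, at bases 21051 to 21150 with 72.9% ± 8.84 at S5 and 44.7% ± 4.93 at S3 over 4 cytosines, and at bases 21651 to 21750 with 71.5% ± 6.38 at S5 and 47.1% ± 4.03 at S3 over 8. The others lay on C11148846 (bases 4551 to 4700, 82.1% ± 3.25 at S5 and 55.7% ± 6.06 at S3 over 4 cytosines) and C11176652 (bases 4351 to 4450, 65.2% ± 10.8 at S5 and 42.0% ± 11.2 at S3 over 3 cytosines). No genes or repeats were assigned to any of these positions, since no annotation of version 1 was used here.

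No contig was called as differently covered at the stages. The log2 coverage ratio differed by -0.56 to 0.49 (S5 minus S3) on the 164 contigs, with a median of 0.01. Limma called 0 of 164 contigs and 0% of all 234724 features at an adjusted p of 0.05, and 2 contigs (1.22%) had an unadjusted p under 0.05, against 1.62% of all features. The 3 most covered contigs differed by -0.15, -0.12 and -0.16 on the log2 scale, within 1 SE of 0 (SE 0.24, 0.26 and 0.22).

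On some contigs the methylcytosines recurred at particular distances. For every distance from 30 bp to 600 bp, or a shorter limit on contigs of small span, same-strand pairs of listed positions were counted. The count is given as a percent of the listed positions with room for that distance on the contig (mean of upstream and downstream). At longer distances this percent rests on fewer positions than the whole list. The best distance of a contig matched 5.25% to 41.1% of the positions with room (median 13.7%), and it matched 25% or more on 8 of the 164 contigs. It is the highest of many distances tried, on lists of 85 to 359 positions for these 8. Windows of Ca1 to Ca8 and of the scaffolds were not searched, so whether such spacing is particular to the contigs was not tested. Tandem repeats such as satellites place the same sequence at a fixed period, but the sequence of these contigs was not read here, and these contigs are named because of their spacing values. C11047258 had its best match at 100 bp (41.1%), with further matches of 25.3% at 200 bp, 27.8% at 299 bp and 36.2% at 399 bp, against a median of 4.15% over all distances. C11063130 had 29.8% at 100 bp, then 22.5% at 530 bp, 18.5% at 200 bp and 17.1% at 430 bp, and C11046484 had 27.7% at both 200 bp and 300 bp. C11082608 had 33.1% at 301 bp, 28.1% at 200 bp and 23.5% at 100 bp. C11054414 had its best match at 520 bp (26.5%), with 21.1% at 100 bp and 16.2% at 200 bp.

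Other spacings occurred as well. Of the positions with room, C11091558 had 27.0% matched at 163 bp, 19.3% at 325 bp and 27.0% at 488 bp. C11072420 had 27.7% at 77 bp and 17.3% at 154 bp. C11102828 had its best match at 65 bp (25.6%), but its next ones, at 115 bp (17.9%) and 53 bp (17.5%), were not multiples of it. Listed positions could also be laid over each other between contigs, in either orientation, at the shift that matched most. Over 12090 pairs of contigs with at least 80 listed positions each, the best shift matched a median of 14.9% of the smaller list and 24.9% at the 99th percentile. The closest pair was C11087572 and C11091558, with 46 of 127 positions matched (36.2%), followed by C11082608 and C11111646 (34.6%) and C11047258 and C11063130 (34.4%).

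**Figure D5:**
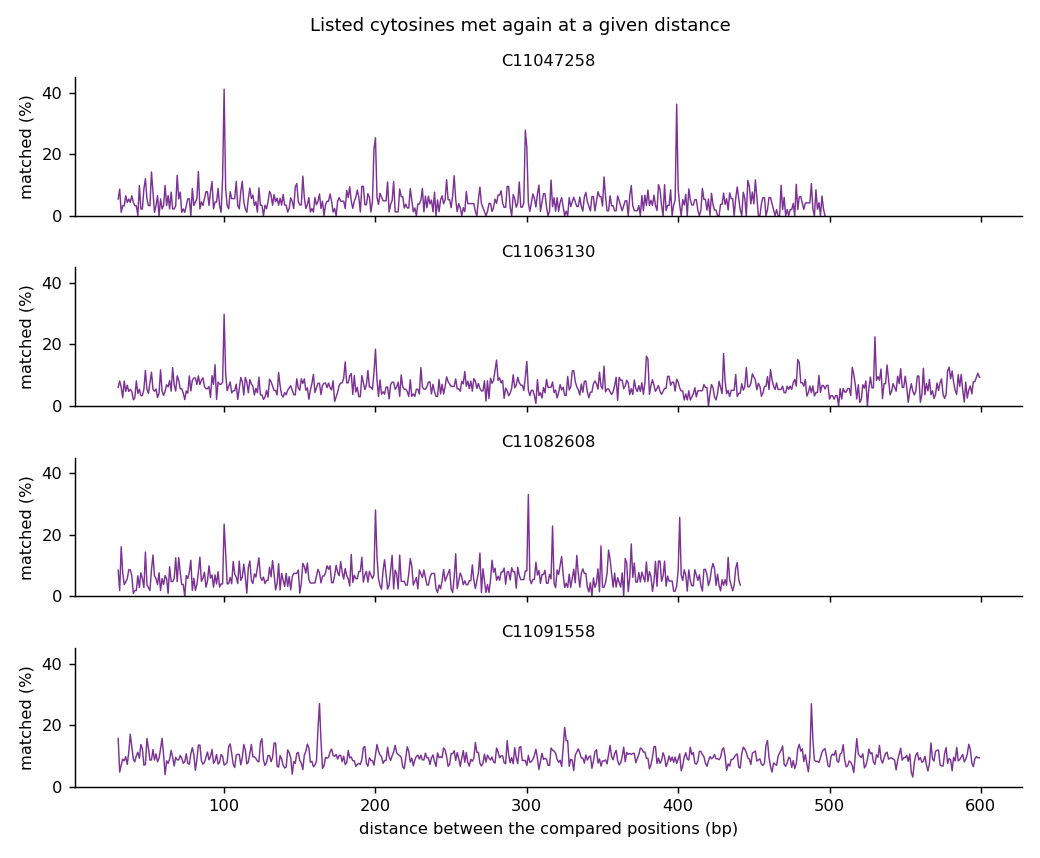
Same-strand pairs of listed cytosines at the distance on the x axis (bp), for 4 contigs chosen for their spacing values. The y axis is their percent of the listed cytosines with room for that distance on the contig, which are fewer at longer distances. C11047258 and C11082608 peak at or near multiples of 100 bp, C11063130 at 100 and 200 bp but also at 430 and 530 bp, and C11091558 peaks at 163, 325 and 488 bp.

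The regularly spaced contigs were not alike in methylation. C11082608 was well covered, with ratios of 3.23, 3.15 and 3.47 at S5 and 3.19 and 3.31 at S3, and its 24 shared asymmetric cytosines were low, at 29.1%, 26.6% and 31.8% at S5 and 25.6% and 23.7% at S3. C11063130, with its best match at 100 bp and a median ratio of 1.25, had asymmetric levels of 56.4%, 58.0% and 57.4% at S5 and 50.9% and 52.5% at S3 over 23 cytosines. C11091558 had a ratio of 0.86 and was rich in symmetric sites, with 148 CG and 111 CHG among its 359 positions. Its 53 shared CHG had 85.5%, 91.9% and 88.5% at S5 and 88.8% and 90.01% at S3, so that here the stages overlapped in CHG.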

How the data were processed

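Bisulphite sequencing data of Himchana 1 seeds at S5 (3 libraries) and S3 (2 libraries), called independent biological replicates by the study, were used with groups from the sample labels. The authors filtered reads with NGS QC Toolkit, aligned them with Bismark (version 0.14.3) to kabuli chickpea version 1, kept uniquely mapped reads, and called methylcytosines with at least 5 reads and a binomial p no higher than 0.0001 against an error rate from the chloroplast. The deposited values are a count of reads over every called cytosine (coverage) and its level, a percent of reads with C. Percent times count gave whole methylated reads in 100% of lines, to within the last of the 2 decimals of the deposited percent, which is no check at very high coverage. The deposited percent of reads with T was not used. Unlisted cytosines may be uncovered or uncalled, so each level here is that of called sites. Unique mapping removes reads that fit several places, which lowers coverage of repeats with copies in the assembly.

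Positions on more than 1 line (213 to 378 per library) were left out. The contigs, and every rule and list used, were chosen with earlier results of these data known. Levels are means over shared cytosines. Libraries were compared by exact two-sided permutation tests (all 10 arrangements of the libraries, smallest p 0.1) and regions within libraries by sign flips (smallest p 0.063), neither of which can reach 0.05. Contigs and 1 kb windows of Ca1 to Ca8 and the scaffolds with at least 3 shared cytosines of a context were tested by logistic regression on reads (likelihood ratio, adjusted p of 0.01 and 25 points, applied here to whole contigs and windows with Benjamini-Hochberg adjustment, not the study's smaller bins and its own adjustment), with p-values adjusted over all features, and by limma 3.58.1 (R 4.3.3) on levels and on log2 coverage ratios. Python 3.11.15, numpy 2.4.6, pandas 2.3.3 and scipy 1.17.1 were used, and the tests were checked on simulated data. Contigs named were the 3 with the most shared cytosines, the highest and lowest coverage and the highest and lowest CG and asymmetric shares, and those called, or else with the largest difference each way. Alternatives were other minimums of shared cytosines, coverage and cytosines per context, other limits on the difference, read-weighted levels, each contig counted once, leaving out deeply covered cytosines or each library, and a replicate block. No genome of version 1 was used, so no sequence is shown.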

Additional observations from a re-analysis of the deposited data

How the results depend on the processing

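The larger CHG difference of the contigs than of Ca1 to Ca8 kept its sign under each of 15 alternatives (-1.89 to -1.06 points, with overlapping stages only at 10 to 20 reads), as did the CHG difference of the contigs (-5.44 to -4.03 points) and the asymmetric difference (2.28 to 5.02 points). The CG distance between contigs and Ca1 to Ca8 turned to 0.0263 points with a coverage minimum of 10 reads, 0.0766 with read weights and 0.797 with each contig and window counted once. The CG difference between the stages on the contigs turned to -0.181 points with read weights and -0.142 with each counted once, and ran from -0.0724 to 0.125 with 1 library left out. The numbers of replicates 1 and 2 do not pair the stages: the deviations of same-numbered libraries from their stage means correlated at only 0.00 to 0.05 over 1 kb windows. For shares and levels the replicate block only left out S5 replicate 3, so these alternatives gave the same values and count as the same result. The CG difference was -0.0724 points there, and no other direction changed. The coverage distance between contigs and Ca1 to Ca8 ran from -0.0303 to 0.00765 with 1 library left out, above 0 without S3 replicate 2 (0.00648) or S5 replicate 3 (0.00765).

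The numbers of called contigs were small and moved. Apart from limma and the 100 bp windows, the share of all features called under the same setting is not given here. These counts therefore do not set the contigs apart from the other features. In CHG, 1 contig became 19 at a limit of 10 points, 0 at 40 points or with limma, 4 in 100 bp windows, and 0 to 2 with 1 library left out (0 without S5 replicate 2, 2 without S5 replicate 1). In the asymmetric class, 0 became 11 at 10 points (10 higher, 1 lower), 6 in 100 bp windows, 1 with 10 or more shared cytosines per contig, 1 with a coverage minimum of 10, and 0 to 1 with 1 library left out (1 without S5 replicate 2). In CG, 0 became 2 at 10 points and 1 in 100 bp windows. The causes were not tested. Chosen after seeing the data, 10 to 20 reads in every library gave 0 called in CHG, where 37 contigs could be tested, 1 in the asymmetric class, and a CG difference of contigs minus Ca1 to Ca8 between the stages of 0.125 points. Leaving out contigs with a coverage ratio of 2 or more, chosen likewise, gave the asymmetric distance of 0.211 points, which was -0.00887 at 10 to 20 reads. The 5 libraries had a median depth of 12 to 14 reads, and cytosines that lost their methylation at 1 stage are in none of these levels.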
